A study of Homo sapiens with 118 samples.

Results

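The acute-phase proteins described here are 10 plasma proteins of the liver: the serum amyloids SAA1, SAA2 and SAA4, C-reactive protein (CRP), haptoglobin (HP), the orosomucoids ORM1 and ORM2, lipopolysaccharide-binding protein (LBP), fibrinogen-like protein 1 (FGL1) and alpha-2-macroglobulin (A2M). They were chosen by gene symbol, and the match found 11 of 22069 rows of the count table, or 10 of 19470 symbols. A2M had 2 detector probes, A2M_1 and A2M_12371, and every other gene had 1. All 11 probes passed the filter on low counts for each of the 8 chemicals.

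The transcripts were measured in HepaRG, an established human line from a liver tumour, which was bought frozen in its differentiated state and kept in culture for 7 days before exposure. The cells were exposed for 72 hours, with daily renewal, to 1 of 8 inhibitors of histone deacetylases, the enzymes that take acetyl groups off histones. Each was given at 5 concentrations, C1 (lowest) to C5 (highest), to 3 batches of cells. Apicidin ran from 0.041722 to 0.86 µM, mocetinostat from 0.177222 to 3.9 µM, panobinostat from 0.001468 to 0.084 µM and scriptaid from 4.94 to 94.5 µM. Tacedinaline ran from 1.143333 to 44 µM, trichostatin A from 0.018811 to 1.5237 µM and vorinostat from 0.404778 to 23.5 µM. The labels give valproic acid 100.478 to 3038, but the protocol gives smaller numbers with the same unit, so its unit is open. Solvent-control libraries were not analysed here, and the reference in every comparison was C1 of the same chemical, which was itself exposed. There were 118 libraries in 40 groups, 3 in each of 38 groups and 2 each for C3 of panobinostat and C4 of trichostatin A. HepaRG is 1 line, so the batches repeat the culture and not the donor.

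Libraries held 1061359 to 5250260 counts in total (median 3702007), and depth fell with concentration for some chemicals (vorinostat mean 3038905 at C1 and 1485592 at C5). The labels call the cells liver progenitor cells. The hepatocyte marker ALB had a median level of 15140 CPM (counts scaled to a common library total) over all libraries. In the biliary and progenitor list EPCAM had a median of 0 and the KRT7 probes 0 and 1.13 CPM, while the others were detected, with medians of 37.4 and 13.2 CPM for the KRT19 probes, 29.3 CPM for SOX9 and 17.3 CPM for SPP1. Of 118 libraries, 3 stood apart in their correlation with group mates or in the members' levels: trichostatin A C1 replicate 3 (mean r 0.873), mocetinostat C2 replicate 3 (0.831) and scriptaid C4 replicate 3 (0.803), against a median of 0.956. Counts of called members per chemical at C2 to C5 that changed when such a library was left out are given both ways below. Group means, totals over chemicals, counts of pairs and correlations are not given without these single libraries.

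The acute-phase response is the change in the liver's secreted proteins that follows infection or injury. Interleukin 6, acting through its receptor and the transcription factor STAT3, and interleukin 1, acting through NF-kB, raise the positive acute-phase proteins, with members of the C/EBP family also acting at their promoters. SAA1 and SAA2 are the inducible serum amyloids, which travel with high-density lipoprotein, and SAA4 is the constitutive one. CRP binds phosphocholine on microbes and dying cells, HP binds free haemoglobin, LBP hands lipopolysaccharide to CD14, and the orosomucoids carry drugs and modulate immunity. FGL1 is a liver protein that responds to interleukin 6, and A2M traps proteases.

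Of the 10 genes, 3 had an entry in the RefSeq promoter table (GRCh38.p14): CRP at chr1:159714590-159714839 on the minus strand, ORM1 at chr9:114322848-114323097 on the plus strand and SAA4 at chr11:18236803-18237052 on the minus strand. The 250 bases before each start are shown for these 3 members because only they had an entry. At C5 CRP and ORM1 fell for 7 chemicals and SAA4 for 6. Capitals mark matches on either strand to TTGCNNAA (a C/EBP-type site), TTCNNGAA or TTCNNNGAA (STAT-type sites), GGGANNTTC (the first 9 letters of an NF-kB-type site) and TATAAA. None of the marked matches overlap.
CRP: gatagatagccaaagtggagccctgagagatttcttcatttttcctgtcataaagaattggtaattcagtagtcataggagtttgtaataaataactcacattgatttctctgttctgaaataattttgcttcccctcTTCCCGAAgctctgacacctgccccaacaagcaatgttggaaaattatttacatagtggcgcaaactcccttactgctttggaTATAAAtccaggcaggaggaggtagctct
ORM1: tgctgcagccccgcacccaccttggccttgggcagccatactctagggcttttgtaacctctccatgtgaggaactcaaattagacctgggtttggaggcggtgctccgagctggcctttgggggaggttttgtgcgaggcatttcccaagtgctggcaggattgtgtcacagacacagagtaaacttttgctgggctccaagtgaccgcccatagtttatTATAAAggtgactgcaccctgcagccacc
SAA4: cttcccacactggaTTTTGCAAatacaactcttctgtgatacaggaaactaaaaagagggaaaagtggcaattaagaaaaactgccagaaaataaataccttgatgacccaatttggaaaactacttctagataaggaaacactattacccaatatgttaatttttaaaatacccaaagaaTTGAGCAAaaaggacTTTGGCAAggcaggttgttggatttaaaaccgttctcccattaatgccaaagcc
The CRP promoter holds a STAT-type match starting at -112 and a TATA match at -29, counted from the transcription start. The ORM1 promoter holds a TATA match at -29, and the SAA4 promoter 3 C/EBP-type matches at -236, -69 and -54. Of 35116 promoters in the table, 9.05% hold the C/EBP-type letters, 6.62% and 6.57% the STAT-type letters with a spacing of 2 and 3, 3.52% the NF-kB-type letters and 10.7% TATAAA. Such a match is a description of letters and not a site of binding.

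At the highest concentration the acute-phase transcripts were lower than at the lowest for 7 of 8 chemicals, and none was higher. A change was called when edgeR's quasi-likelihood test gave a Benjamini-Hochberg adjusted p under 0.05 over all features tested for that chemical and the fold was at least 1.5. By that rule 67 of 88 results (11 probes, 8 chemicals) fell at C5 and 0 rose, where 13.4% of all results tested fell and 11.6% rose. Without trichostatin A, 67 of 77 fell, with 15.3% of all results. The count was 11 of 11 probes for tacedinaline (20.1% of all features), 10 for apicidin (15%), 10 for mocetinostat (15.7%, and 11 with 17.4% without its C2 replicate 3), 10 for vorinostat (24.9%), 9 for scriptaid (17%), 9 for valproic acid (6.22%), 8 for panobinostat (9.46%) and 0 for trichostatin A (0.0154%). Without its C1 replicate 3, trichostatin A had 7 lower at C5 (0.645%). The median log2 change of the 11 probes lay between -1.85 (panobinostat) and -3.65 (tacedinaline) for the 7 other chemicals, while the median of all features stayed between -0.00182 and 0.0842. These are bulk lysates, in which fewer cells of a type and less RNA per cell cannot be told apart.

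**Figure D1:**
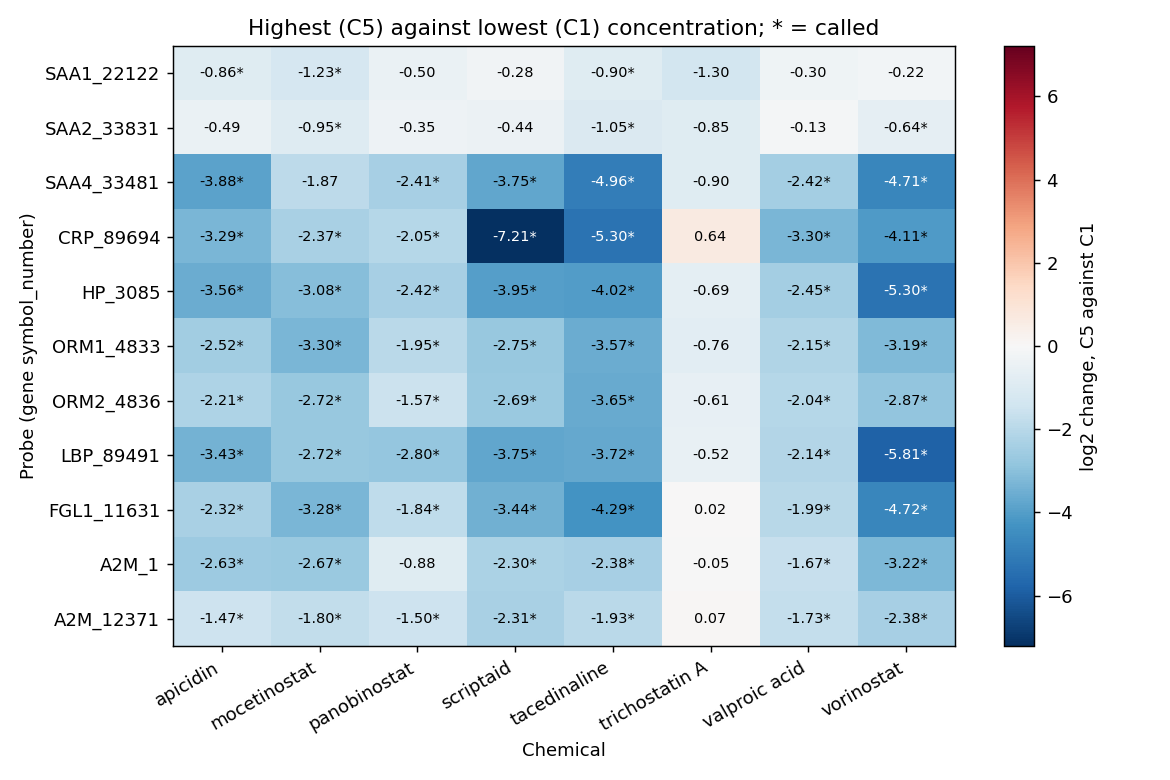
Log2 change at C5 against C1 for each acute-phase probe (rows) and chemical (columns), with an asterisk where the change was called. The rows of SAA1 and SAA2 are pale for all 8 chemicals, and the column of trichostatin A holds no call. Fitted values of CRP for scriptaid and tacedinaline stand against groups with at most 1 count per library, for which the text gives the ratio of counts with its interval.

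HP and LBP, the haemoglobin scavenger and the lipopolysaccharide carrier, fell for 7 of 8 chemicals and most for vorinostat. HP levels with vorinostat were 10965, 14701 and 12007 CPM at C1 and 378, 339 and 175 CPM at C5. LBP levels with vorinostat were 1677, 2193 and 1755 CPM at C1 and 40.1, 30.0 and 25.1 CPM at C5. For both genes every C5 library lay far below every C1 library. The log2 change was -5.30 ± 0.23 (SE) for HP (edgeR adjusted p = 9.41e-19) and -5.81 ± 0.28 for LBP (adjusted p = 5.42e-18), which are falls of 39.5-fold and 56.1-fold. The smallest fall of HP among the 7 chemicals was with panobinostat, from 17648, 14140 and 11559 CPM to 3265, 2804 and 2130 CPM, again with no overlap. It came to -2.42 ± 0.25 on the log2 scale (edgeR adjusted p = 5.18e-07). LBP fell least with valproic acid, by 2.14 ± 0.18 (SE) on the log2 scale (edgeR adjusted p = 2.05e-08).

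FGL1 also fell for 7 of 8 chemicals. With tacedinaline it went from 1624, 1454 and 1464 CPM at C1 to 78.5, 80.4 and 64.7 CPM at C5, and with vorinostat from 1803, 2193 and 2060 CPM to 98.2, 62.8 and 57.3 CPM. The groups did not overlap for either chemical. The log2 changes were -4.29 ± 0.15 (edgeR adjusted p = 5.5e-26) and -4.72 ± 0.23 (adjusted p = 9.93e-18). The smallest of the 7 was that of panobinostat, -1.84 ± 0.24 (edgeR adjusted p = 1.17e-05), where C5 libraries held 686, 628 and 696 CPM against 2705, 2517 and 1932 CPM at C1.

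The orosomucoid genes ORM1 and ORM2, which lie next to each other on chromosome 9 and are near-identical in sequence, fell for the same 7 chemicals. With tacedinaline ORM1 went from 4127, 3332 and 3984 CPM to 329, 335 and 260 CPM, and ORM2 from 1523, 1085 and 1238 CPM to 117, 116 and 62.3 CPM. No C5 library reached a C1 library for either gene. The fitted log2 changes were -3.57 ± 0.16 for ORM1 (edgeR adjusted p = 1.11e-21) and -3.65 ± 0.20 for ORM2 (adjusted p = 1.87e-19). Across the 7 chemicals ORM1 lay between -3.57 and -1.95 and ORM2 between -3.65 and -1.57, both smallest with panobinostat. Because the deposited table does not give the probe sequences, reads of such close copies cannot be assigned to 1 gene with certainty. The same holds for SAA1 with SAA2 and for HP with its neighbour HPR. The HPR probe was called lower for the 7 chemicals as well. With panobinostat, mocetinostat, valproic acid and scriptaid its log2 change lay between -5.67 and -3.46. With apicidin, tacedinaline and vorinostat the C5 groups held only 6, 5 and 4 HPR counts in all. The ratios of depth-scaled counts there were 55.7-fold (95% exact interval 25.4 to 153), 50.8-fold (21.5 to 157) and 65.0-fold (25.2 to 240) lower, intervals that cover counting error only.

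CRP was a low transcript here, with C1 group means between 13.2 and 32.6 CPM, and it fell for 7 of 8 chemicals. With scriptaid the C1 libraries held 31.3, 22.4 and 23.5 CPM (102, 94 and 82 counts), and the C5 libraries held 0, 0 and 1 counts. With tacedinaline C1 held 21, 40 and 42 counts and C5 held 1, 1 and 0. Since no C5 library of these groups had more than 1 count, the fall is given as a ratio of depth-scaled counts summed over the libraries. CRP was 202-fold lower with scriptaid (95% exact interval 36.0 to 8012) and 43.6-fold lower with tacedinaline (11.8 to 365), where the intervals cover counting error only (edgeR adjusted p = 0.000187 and 2.53e-05). With vorinostat CRP went from 25.5, 32.6 and 39.8 CPM to 0, 3.80 and 0.585 CPM, a log2 change of -4.11 ± 0.54 (edgeR adjusted p = 1.08e-07), with no overlap. Without batch 1 the calls of CRP were lost with mocetinostat (-1.96, adjusted p = 0.0597) and panobinostat (-1.43, adjusted p = 0.193). With trichostatin A the C5 libraries held 28.6, 14.0 and 29.0 CPM, and they overlapped with C1 libraries at 28.1, 17.4 and 0.299 CPM.

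SAA4, the constitutive serum amyloid, was called lower for 6 chemicals. With tacedinaline its levels were 59.2, 37.2 and 40.5 CPM at C1 and 0.999, 2.41 and 0.412 CPM at C5, which did not overlap. The log2 change was -4.96 ± 0.52 (edgeR adjusted p = 1.26e-10). Mocetinostat gave no call for SAA4, at -1.87 ± 0.99 (edgeR adjusted p = 0.171), although its C5 libraries at 6.78, 3.10 and 12.8 CPM lay below its C1 libraries at 31.8, 39.1 and 15.7 CPM. The SAA4 calls with panobinostat and valproic acid were lost without batch 1 (adjusted p = 0.0586 and 0.145) and that with scriptaid without batch 2 (adjusted p = 0.0539). Without batch 3 mocetinostat gave a call (-2.77, adjusted p = 0.0259). A separate probe for the SAA2-SAA4 readthrough transcript, which joins both genes, fell for the same 7 chemicals as HP, from -2.76 (panobinostat) to -4.63 (vorinostat).

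A2M, the broad protease trap, fell by a smaller amount on its more abundant probe. A2M_12371 lay between -2.38 (vorinostat) and -1.47 (apicidin) on the log2 scale over the 7 chemicals and was called for each of them. The sparser probe A2M_1 was called for 6 and lay between -3.22 (vorinostat) and -0.88 (panobinostat). With vorinostat A2M_12371 went from 60.9, 64.5 and 65.7 CPM to 11.5, 14.7 and 7.60 CPM with no overlap (-2.38 ± 0.30, edgeR adjusted p = 4.02e-08). The panobinostat change of A2M_1, -0.88 ± 0.32, missed the threshold (edgeR adjusted p = 0.0601), and passed it with the cell batch as a replicate block (-0.89, adjusted p = 0.0349) and in DESeq2 (-0.86, adjusted p = 0.0481). Without batch 1 the A2M_1 calls with mocetinostat (adjusted p = 0.0526) and scriptaid (adjusted p = 0.224) were lost, the latter also without batch 2 (adjusted p = 0.197).

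SAA1 and SAA2, the inducible serum amyloids, changed little beside these. Of their 14 results outside trichostatin A 6 were called lower, against 61 of 63 for the other 9 probes and 15.3% of all results. SAA1 was called for apicidin, mocetinostat and tacedinaline, and SAA2 for mocetinostat, tacedinaline and vorinostat. Over the 7 chemicals SAA1 lay between -1.23 (mocetinostat) and -0.22 (vorinostat) on the log2 scale, and SAA2 between -1.05 (tacedinaline) and -0.13 (valproic acid). With valproic acid SAA2 held 1961, 2038 and 1804 CPM at C1 and 1839, 2090 and 1379.9 CPM at C5, and the groups overlapped (-0.13 ± 0.16, edgeR adjusted p = 0.686). With vorinostat, where HP fell 39.5-fold, SAA1 held 345, 381 and 362 CPM at C1 and 323, 354 and 194 CPM at C5. Those groups overlapped too, and the log2 change of -0.22 ± 0.18 was not called (edgeR adjusted p = 0.303). By contrast every C5 library lay below every C1 library for SAA1 with apicidin, mocetinostat, panobinostat and tacedinaline. With apicidin SAA1 went from 373, 511 and 379 CPM to 250, 268 and 174 CPM. The same separation held for SAA2 with apicidin, mocetinostat, scriptaid, tacedinaline and vorinostat. SAA1 with scriptaid and valproic acid and SAA2 with panobinostat overlapped. The call of SAA1 with apicidin was lost without batch 2 (-0.83, adjusted p = 0.0551) or batch 3 (-0.78, adjusted p = 0.195), and that with mocetinostat without batch 2 (-1.42, adjusted p = 0.0776). The call of SAA2 with vorinostat was lost without batch 3, where the fold fell under 1.5 (log2 change -0.54). SAA1 with panobinostat was called without batch 2 (-0.61, adjusted p = 0.0111), and SAA2 with apicidin without batch 1 (-0.64, adjusted p = 0.0157).

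The level of SAA2 relative to HP in the same library therefore rose with concentration. At C1 of vorinostat the log2 ratio of SAA2 to HP averaged -2.72, and at C5 it averaged 2.00, a rise of 4.72 ± 0.34 (SD, n = 3 batches). The rise was 3.50 ± 0.0857 for scriptaid, 3.10 ± 0.25 for apicidin and 2.97 ± 0.11 for tacedinaline. Valproic acid had 2.36 ± 0.36, mocetinostat 2.14 ± 0.26 and panobinostat 2.09 ± 0.36. All 3 batches moved upward for each of these 7 chemicals. The same count, 7 of 8 chemicals with every batch upward, was found for SAA1 relative to HP, and for SAA1 or SAA2 relative to LBP, FGL1 or ORM1. From C1 to C5 the mean shift of SAA1 relative to SAA2 lay between -0.502 (trichostatin A) and 0.378 (vorinostat) on the log2 scale. Steps between C1 and C5 are not covered by this range. These ratios compare changes and not levels between genes, since probes differ in efficiency.

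**Figure D2:**
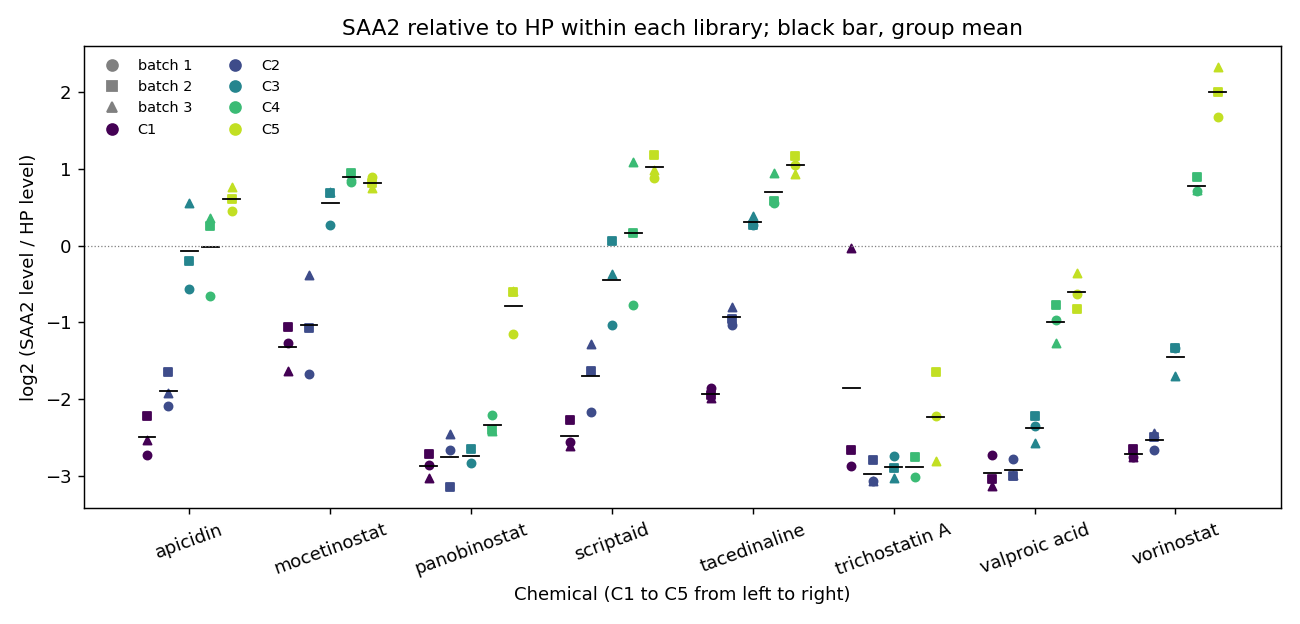
Log2 ratio of the SAA2 level to the HP level within each library, by chemical and, from left to right within a chemical, by concentration C1 to C5. Symbols mark the 3 cell batches and black bars the group means. The C5 points lie above the C1 points for every chemical but trichostatin A, where the C1 library of batch 3 stands near 0.

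The levels of SAA1 and SAA2 at C1 already differed between chemicals. SAA1 was highest with mocetinostat at 2621.5 ± 194 CPM (SD, n = 3), followed by tacedinaline at 1107.6 ± 164 CPM, and the 6 other chemicals had means between 362 and 576 CPM. The ranges of mocetinostat and tacedinaline overlapped neither each other nor the third. SAA2 at C1 was 12508 ± 2145 CPM with mocetinostat and 4671 ± 710.2 CPM with tacedinaline, and the means of the others lay between 1691 and 3049.6 CPM. HP was also highest with mocetinostat, at 30955 ± 972 CPM, and did not overlap with the next, tacedinaline at 17692 ± 1884 CPM. LBP (2388 ± 115 CPM) and ORM1 (5078 ± 863 CPM) were highest with mocetinostat as well, without overlap with the next chemical. The C1 concentrations of the chemicals are unequal, and mocetinostat and tacedinaline were on different plates, so these values stand side by side with no test.

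One step above the lowest concentration, SAA1 and SAA2 rose with tacedinaline. SAA2 went from 5399, 4635 and 3980 CPM at C1 to 10033, 10629 and 10349 CPM at C2, and then to 2298, 2212 and 2018 CPM at C5. SAA1 went from 1296, 999.9 and 1027 CPM to 2948, 2298 and 1337 CPM at C2, and to 524, 644 and 546 CPM at C5. For both genes the 3 groups were separate, with C2 highest and C5 lowest. The C2 changes were 1.15 ± 0.11 for SAA2 (edgeR adjusted p = 1.2e-08) and 0.99 ± 0.16 for SAA1 (adjusted p = 0.000368). They were the 2 calls of all 88 member results at C2, where 0.297% of all features rose with tacedinaline and 0.0659% over the 8 chemicals. HP with tacedinaline was 19502, 17832 and 15742 CPM at C1 and 20568, 20660 and 17973 CPM at C2, a log2 change of 0.16 ± 0.11 that was not called (edgeR adjusted p = 0.826). In 1 model of all libraries neither C2 rise was called, and without 1 batch at a time the C2 rises over all chemicals numbered 1 to 4.

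With mocetinostat SAA2 was also higher at C2 than at C1, at 14924, 22735 and 18663 CPM against 13036, 14340 and 10149 CPM, and the groups did not overlap. The log2 change of 0.65 ± 0.19 was not called (edgeR adjusted p = 0.127). SAA1 did not share this rise in every batch. It held 2840, 2467 and 2558 CPM at C1 and 1363, 1865 and 3831 CPM at C2, lower in batches 1 and 2 and higher in batch 3. HP at C2 was 47537, 47692 and 24293 CPM and LBP 3825, 4499 and 1849.7 CPM, with the third library lowest for both. The mean correlation with group mates was 0.873, 0.909 and 0.831 for the C2 libraries of batches 1, 2 and 3. Without the batch 3 library SAA2 (0.69, edgeR adjusted p = 0.0112), HP (0.72, adjusted p = 0.00142) and LBP (0.90, adjusted p = 0.00932) were called higher at C2 and SAA4 lower. With it left out, 14.1% of all features rose and 15.6% fell in that comparison, against 0.153% and 0.0383% with it. At C3, the next concentration, 6.44% fell without that library. SAA4 was 31.8, 39.1 and 15.7 CPM at C1, 0, 1.15 and 23.2 CPM at C2 and 1.47, 11.4 and 7.64 CPM at C3. For SAA4 it was the third C2 library that lay within the C1 range. Which C2 library departed from the series was not tested.

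**Figure D3:**
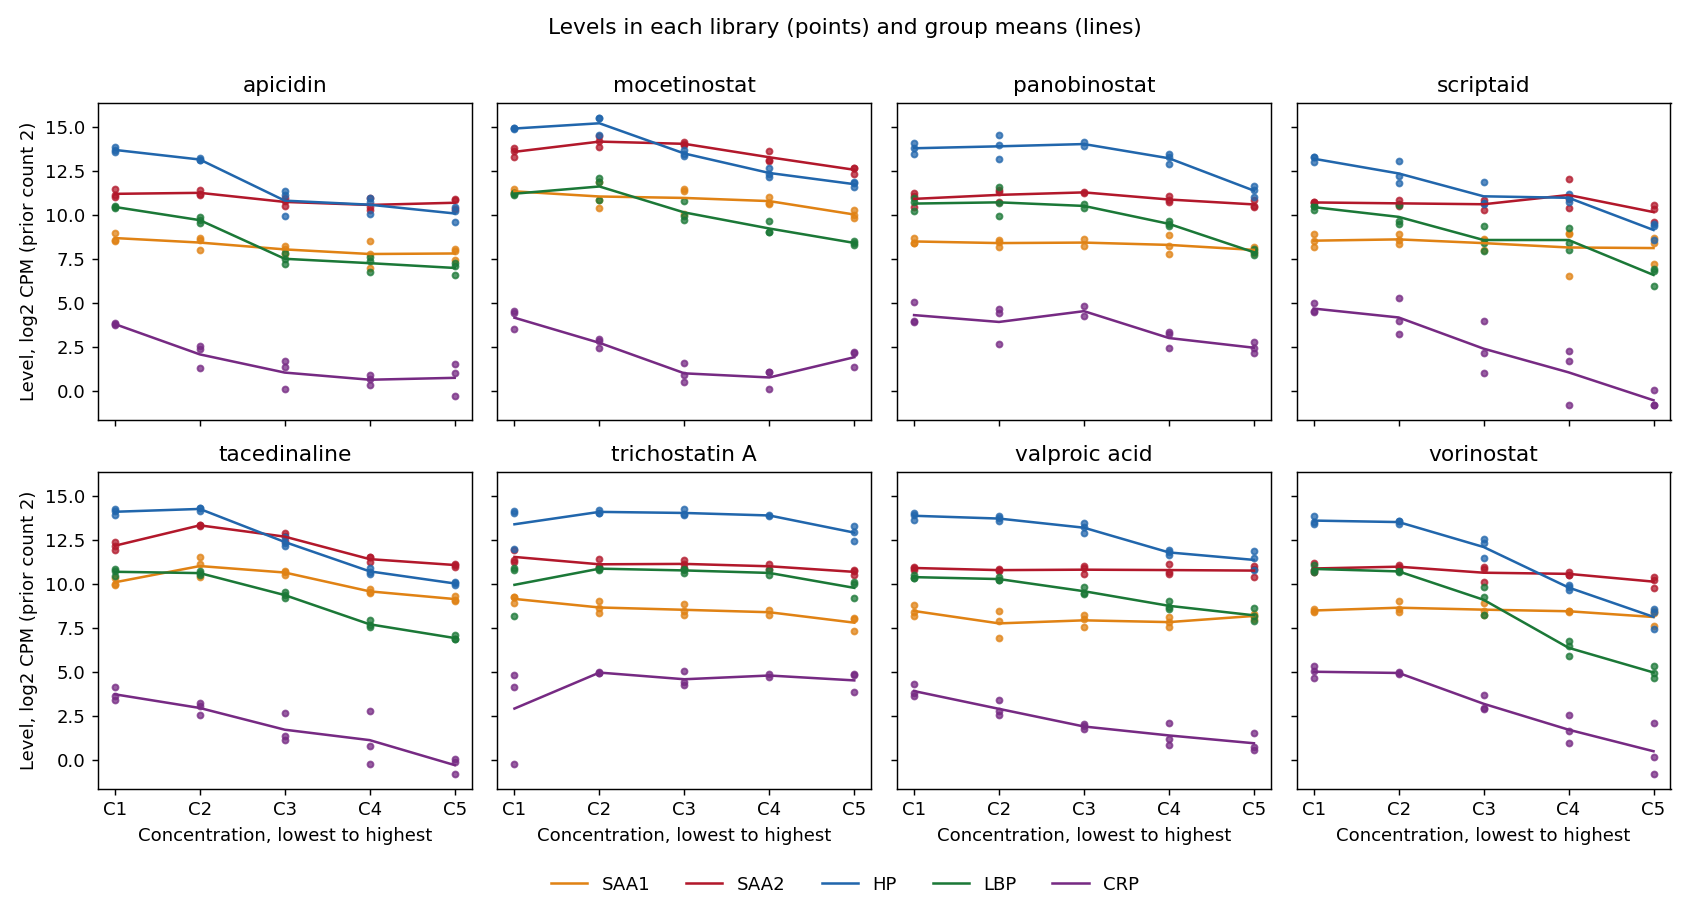
Levels of SAA1, SAA2, HP, LBP and CRP as log2 CPM with a prior count of 2, by concentration, in 1 panel per chemical. Points are libraries and lines join group means. The HP, LBP and CRP lines end lower at C5 than at C1 for 7 chemicals, while those of SAA1 and SAA2 stay flatter. Not every step goes down: with mocetinostat the HP and LBP lines rise from C1 to C2. With tacedinaline the SAA lines peak at C2, as does the SAA2 line with mocetinostat.

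The falls appeared step by step along the concentrations. At C2 no member was called lower for any chemical (0.0206% of all results fell). At C3 35 of 88 member results fell (3.16% of all results), at C4 53 (8.14%) and at C5 67 (13.4%), while 0 rose at C3 or C4 (2.82% and 7.85% of all results). Without batch 2 the count at C3 was 20. Apicidin had 9 of 11 probes lower at C3 (8.39% of all features) and vorinostat 8 (3.88%). Mocetinostat and tacedinaline had 6 each at C3 (5.14% and 6.46%), valproic acid 4 (0.84%) and scriptaid 2 (0.876%). Without scriptaid C4 replicate 3, the library that stood apart, scriptaid had 7 at C3 (3.67%) and 7 at C4 (6.02%). Without mocetinostat C2 replicate 3, mocetinostat had 8 at C3 (6.44%). Panobinostat had 0 at C3 and 1 at C4 (1.4%), with 7 of its 8 first called at C5. At C4 apicidin had 11 (11.2%), tacedinaline 10 (16.4%), vorinostat 9 (16.7%), valproic acid 9 (6.35%), mocetinostat 8 (11.6%) and scriptaid 5 (2.67%). For trichostatin A the count was 0 at each step, and 7 at C5 without its C1 replicate 3 (0.645%). A trend on the logarithm of the labelled concentration over all 5 groups called 68 of 88 lower and 0 higher (12.7% of all results fell and 12.7% rose). It called 8 lower with panobinostat (9.35% of all features), 9 with scriptaid (6.18%) and 1 with trichostatin A (0.0462%). The panobinostat count was 3 without batch 1, the scriptaid count 2 without batch 2, and the trichostatin A count 6 without its C1 library of batch 3 (0.349%).

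**Figure D4:**
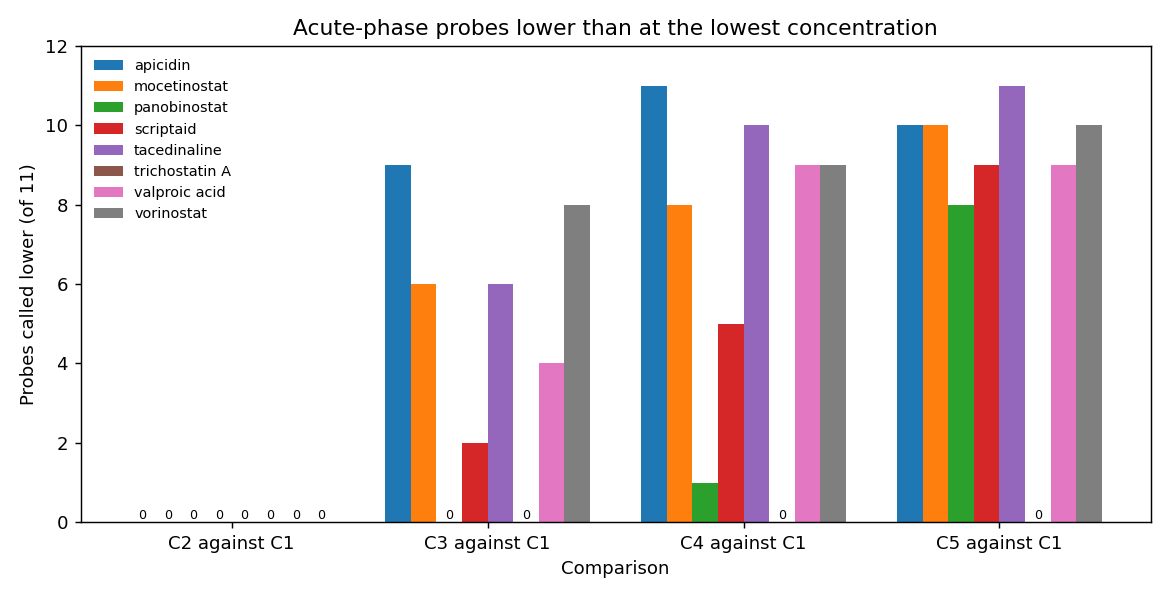
Number of the 11 acute-phase probes called lower at C2, C3, C4 and C5 against C1, with 1 bar per chemical and 0 printed where no probe was called. All libraries are included. Apicidin and vorinostat have the tallest bars at C3, the scriptaid bar at C3 stands at 2 (7 without its C4 replicate 3), and panobinostat reaches 8 at C5 after 1 at C4.

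Trichostatin A gave no member call at C5, and its C1 group held a library that differed from its mates. HP at C1 was 18121 and 16934 CPM in batches 1 and 2 and 4079 CPM in batch 3, and C5 libraries held 8088, 5650.3 and 10233 CPM. CRP at C1 was 28.1 and 17.4 CPM in batches 1 and 2 and 0.299 CPM (1 count) in batch 3, and FGL1 3137 and 2678 CPM against 237 CPM. SAA2 was higher in the batch 3 library, at 3988 CPM against 2486 and 2676 CPM. With all libraries 0 of 11 members were called at C5 by edgeR, where 1255 of 12993 features had an unadjusted p under 0.05 and 2 were called lower. DESeq2 called 2 members lower. Without the batch 3 C1 library, 7 of 11 members fell at C5 and 0 rose, where 0.645% of all features fell. HP then changed by -1.12 ± 0.15 (edgeR adjusted p = 0.000487), ORM1 by -1.24 ± 0.19 (adjusted p = 0.00145), ORM2 by -1.05 ± 0.15 (adjusted p = 0.000528) and LBP by -1.01 ± 0.17 (adjusted p = 0.00305). SAA1 changed by -1.26 ± 0.21 (edgeR adjusted p = 0.00255), SAA4 by -1.37 ± 0.29 (adjusted p = 0.018) and SAA2 by -0.62 ± 0.15 (adjusted p = 0.0488). CRP, FGL1 and both A2M probes were not called in either case. The hepatocyte marker list was low in the same library: the summed level of its 12 probes was 12800 CPM in the lowest C1 library and 53890 CPM in the highest, against 35990 to 44240 CPM at C5. Its part in the result was not tested.

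The size of the C5 change differed between the chemicals for 9 of the 11 probes by edgeR's F test over the 8 changes, where 30.3% of all features passed. SAA1 (adjusted p = 0.228) and SAA2 (adjusted p = 0.104) did not pass. Of 28 pairs of chemicals, with p-values adjusted over all pairs and features, 18 differed for FGL1, 17 for HP, 15 for LBP, 10 each for ORM1 and ORM2, and 9 for CRP. A2M_12371 had 7 such pairs, A2M_1 6, SAA4 2, SAA2 1 and SAA1 0. Leaving aside the 7 pairs with trichostatin A, 21 pairs remain, of which 11 differed for FGL1, 10 for HP, 8 for LBP and 4 each for ORM1 and ORM2. CRP had 2 such pairs, A2M_1 and SAA2 1 each, and A2M_12371, SAA4 and SAA1 0. For A2M_12371 and SAA4 every pair that differed thus included trichostatin A. Without trichostatin A C1 replicate 3 the same 9 probes passed the F test, with an adjusted p of 0.00508 for A2M_12371, 0.00739 for A2M_1 and 0.0486 for SAA4. HP fell by 2.95 ± 0.44 (SE) log2 units more with vorinostat than with valproic acid (edgeR adjusted p = 1.96e-07) and by 3.01 ± 0.44 more than with panobinostat (adjusted p = 1.14e-07). LBP fell by 3.76 ± 0.51 more with vorinostat than with valproic acid (adjusted p = 1.15e-08). The concentrations tested are unequal between chemicals, so these are differences over the ranges given and not between matched doses.

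Over the 40 group means, the 11 probes fell into 2 sets of like pattern. SAA1 and SAA2 had a Pearson r of 0.944 with each other and between -0.0366 and 0.486 with the other probes. Those 9 had r between 0.711 and 0.985 among themselves, highest for ORM1 with ORM2. These are descriptions across groups that share chemicals, batches and plates. Of 15632 features, the pattern most like that of HP was that of LBP (0.98), followed by ORM2 (0.962) and ORM1 (0.953). FGL1 was most like ABCA1 (0.979), F9 (0.978) and TM4SF5 (0.978), and CRP most like TNFSF14 (0.937), F11 (0.929) and AHSG (0.92). ORM1 and ORM2 were, after each other, most like CFB (0.97 and 0.968). After SAA2, SAA1 was most like DRAXIN (0.838) and TNFAIP2 (0.808), and SAA2 after SAA1 most like TNS4 (0.779) and TNFAIP2 (0.771). SAA4 was most like UGT2B7 (0.911), A2M_1 most like STAP2 (0.952) and A2M_12371 most like ITIH4 (0.964).

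**Figure D5:**
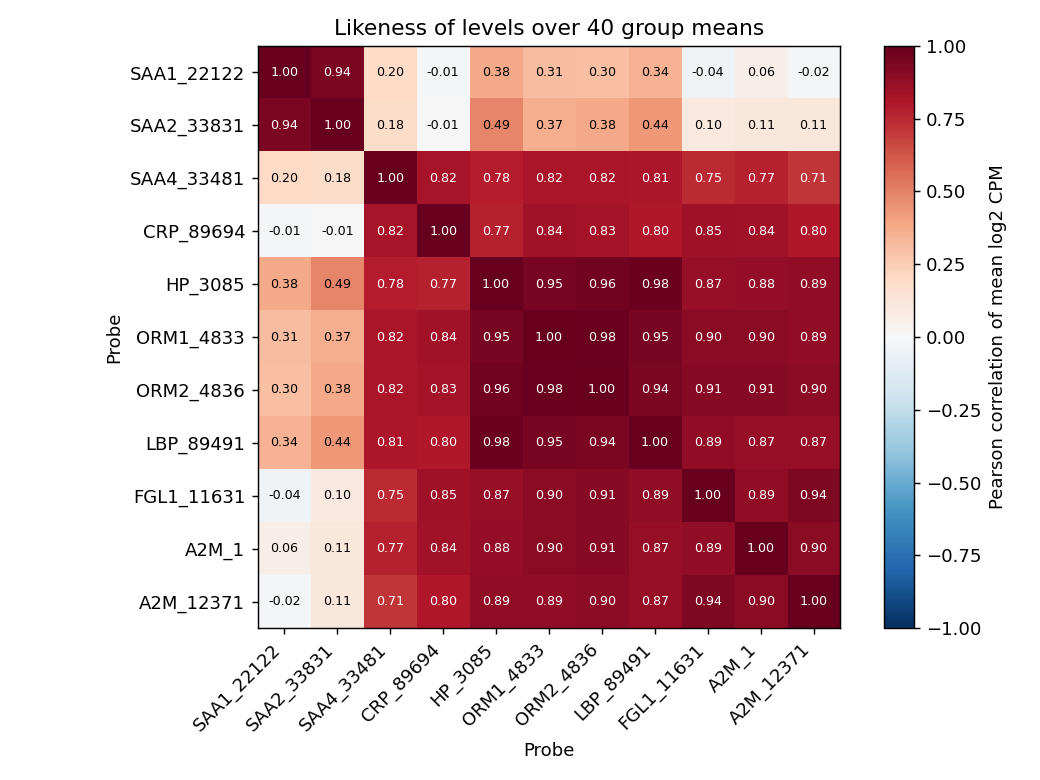
Pearson correlation of mean log2 CPM over the 40 groups for each pair of acute-phase probes, on a scale from -1 to 1. SAA1 and SAA2 form a pair at 0.94 that is pale against the other 9 probes, which are above 0.7 among themselves.

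Most other genes of the acute-phase response were also called lower at C5, whether their plasma levels are known to rise or fall in inflammation. Of 110 results for other positive acute-phase proteins in the 7 chemicals, 92 fell and 4 rose, where 15.3% of all results fell and 13.3% rose. All 4 rises were of LCN2 (named after its values were seen), a siderophore-binding protein, by 2.58 ± 0.23 (SE) with apicidin, 3.30 ± 0.29 with mocetinostat, 3.96 ± 0.21 with tacedinaline and 3.61 ± 0.22 with vorinostat on the log2 scale. The copper carrier CP fell for all 7 chemicals, from -2.98 (valproic acid) to -6.74 (vorinostat), and so did C4BPA, ITIH4 and FGB. Of 58 results for negative acute-phase proteins, which the liver makes less of in inflammation, 47 fell and 0 rose. AHSG, TF, ALB and RBP4 fell for all 7 chemicals. ALB lay between -1.21 (panobinostat) and -4.25 (tacedinaline). The list medians for the 7 chemicals were between -3.77 and -1.32 for the positive and between -4.25 and -1.21 for the negative proteins.

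Fewer results of the genes that carry the inflammatory signal were called, and their shares are read against the 15.3% of all results that fell and the 13.3% that rose in the 7 chemicals. IL6R, the receptor chain that binds interleukin 6, fell for all 7 chemicals, from -0.93 ± 0.19 with panobinostat (edgeR adjusted p = 0.00118) to -3.65 ± 0.35 with mocetinostat (adjusted p = 9.71e-07). LIFR, a related receptor chain, rose for 4 chemicals, by 1.29 ± 0.18 at most (vorinostat, adjusted p = 3.34e-07). Over the list of cytokine receptors and ligands 21 of 71 results fell and 9 rose. In the JAK-STAT3 list 14 of 68 fell and 9 rose, shares near those of all results. In it the kinase JAK1 rose for 4 chemicals and CISH fell for 5. In the NF-kB list 22 of 126 fell and 23 rose, again near the shares of all results. NFKB1 and BCL3 were lower for 6 chemicals and IRAK1 and NFKBIZ for 5. The rises, named after their values were seen, included NFKB2, MAP3K7 and 2 of the 3 RELA probes for 4 chemicals each. The largest log2 change of NFKB2 was 2.14 ± 0.58 with vorinostat (edgeR adjusted p = 0.00235), and that of RELA_90947 was 1.20 ± 0.30 with mocetinostat (adjusted p = 0.00574). Among the transcription factors that act at acute-phase promoters 42 of 85 fell and 2 rose, both of the glucocorticoid receptor NR3C1 (0.60 ± 0.18 with apicidin and 0.97 ± 0.22 with vorinostat, named after its values were seen). With valproic acid 0 of the 13 probes of this list fell (median -0.485), while 5 (panobinostat) to 9 (mocetinostat) fell with the other 6 chemicals. HNF4A, a master regulator of the hepatocyte, fell for 6 chemicals, to -4.59 ± 0.71 with mocetinostat (edgeR adjusted p = 0.000127), as did NR1H4 and FOXA1, and CEBPD fell for 5. With trichostatin A none of these lists had a called result.

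Hepatocyte markers moved with the members. Of 12 probes for 9 hepatocyte genes, between 9 (panobinostat) and 12 (mocetinostat, scriptaid, tacedinaline and vorinostat) fell at C5 for the 7 chemicals, and 0 with trichostatin A. Their summed level with tacedinaline was 38680 to 52770 CPM at C1 and 3077 to 4369 CPM at C5. In the biliary and progenitor list 1 to 3 of 4 tested probes rose for the 7 chemicals, and 0 fell. Its summed level was 80.8 to 96.7 CPM at C1 and 201 to 226 CPM at C5 with apicidin, the largest shift, while the C1 and C5 ranges overlapped with mocetinostat, scriptaid and tacedinaline. Of the stromal markers, 1 to 3 of 7 tested probes fell and 0 to 2 rose. In the macrophage list the C1QA, C1QB, CD163, MARCO and CSF1R probes had medians of 0 CPM. In the same list CD14 had a median of 4.404 CPM and CD68 34 CPM. Of its 2 tested probes, 2 fell with tacedinaline, 1 with mocetinostat and 0 with each other chemical, and 0 rose. In the endothelial list the VWF, CDH5 and STAB2 probes and 1 PECAM1 probe had a median of 0, the other PECAM1 probe 0.777 CPM (at most 16.7) and KDR 6.60 CPM (at most 33.5). KDR was called lower with scriptaid, and the leukocyte list summed to at most 0.489 CPM in any C1 or C5 library. The part of a change in cell make-up or state in the fall of the acute-phase transcripts was not tested.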

How the data were processed

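Lysates of 118 wells were read by TempO-Seq, a targeted assay that ligates 2 adjacent probes on a transcript before amplification and sequencing. The authors deposited raw counts per probe, whole numbers without normalisation, in 1 table. The submitters' processing notes name bcl2fastq 2.20.422, fastp 0.23.2, STAR 2.7.10b and DESeq2 1.38.0, without their roles, and the genome build is not given in the sources used here. Of 22069 rows, 1 with missing values was left out. No 2 libraries were identical.

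With edgeR 4.0.16 in R 4.3.3, 1 model per chemical was fitted (filterByExpr, TMM scaling, quasi-likelihood tests) against its C1 group, and p-values were adjusted by Benjamini-Hochberg over all features tested. Calls needed an adjusted p under 0.05 and a fold of at least 1.5. The difference between chemicals was tested in 1 model of all libraries. CPM values are counts scaled to a common library total after TMM scaling over all libraries. The pipeline was tested on simulated data. Where each C5 library held at most 3 counts, ratios have exact (Clopper-Pearson) 95% intervals that cover counting error only, because PCR copies were counted without molecular identifiers.

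The alternatives were DESeq2 1.42.0, other scalings, no filter, no fold threshold, the replicate block, 1 model of all libraries, and leaving out replicates or single libraries, the last chosen after seeing the data. Replicate numbers mark the cell batch per the labels. The median correlation of deviations from group means was 0.0361 for same-batch pairs of libraries and -0.0154 for other pairs. Named genes were all rows matching a member, up to 4 features per list (those called for most chemicals, ties by larger median change), and the 3 features most like each member. The members and lists were chosen with earlier results of these data known. The paper supplied with the series describes another experiment, and only its style was used.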

Additional observations from a re-analysis of the deposited data

Results flagged for a closer look

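The C5 against C1 change differed between the 8 chemicals for 9 of the 11 acute-phase probes, by edgeR's F test with Benjamini-Hochberg adjustment over all features. Of all features, 30.3% passed the same test. The adjusted p was 1.46e-15 for FGL1, 2.03e-14 for HP and 1.98e-13 for LBP. For CRP it was 5.07e-07, for ORM2 8.8e-07 and for ORM1 1.34e-06. A2M_12371 had 9.97e-05, A2M_1 0.000855 and SAA4 0.0168. The chemicals were given over unequal concentration ranges, and trichostatin A, whose C1 group held the library that stood apart, took part in these tests. For A2M_12371 and SAA4 0 of the 21 pairs without trichostatin A differed, and for A2M_1 1 did.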

How the results depend on the processing

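Outside trichostatin A, none of the 77 member changes at C5 turned its direction under DESeq2, the size factors of DESeq2, no filter, the replicate block, 1 model of all libraries or any left-out batch. Under total counts without TMM 1 did: SAA2 with valproic acid was 0.01026 in place of -0.13. That scaling moved the median of all features by up to 0.189 on the log2 scale, and relative to the median the SAA2 change was -0.146. It also ended 2 calls, SAA2 with vorinostat (-0.55) and A2M_1 with scriptaid (-2.15).

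The number of members lower at C5 with trichostatin A, 0 with all libraries, was 2 in DESeq2, 4 with no filter, 0 to 7 with 1 replicate left out and 7 without its C1 replicate 3. Its trend count of 1 became 2 in DESeq2, 0 in 1 model of all libraries, 0 to 1 with 1 replicate left out and 6 without that library. With 1 replicate left out, the trichostatin A change at C5 turned direction for 4 probes, none of them called: CRP ranged from -0.07721 (without replicate 3) to 1.278, FGL1 from -0.6735 to 0.5291, A2M_12371 from -0.7557 to 0.5028 and A2M_1 from -0.2588 to 0.2423 (without replicate 1). Without C1 replicate 3 alone, FGL1 was -0.5151, A2M_12371 -0.2844 and A2M_1 -0.3643. The cause was not tested. The trend count of panobinostat ranged from 3 to 9 and that of scriptaid from 2 to 9 with 1 replicate left out, against 8 and 9, lowest without replicate 1 and replicate 2.

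Summed over chemicals, members lower at C2 numbered 1 with no filter and 0 to 1 with 1 replicate left out, and members higher at C2 numbered 0 in 1 model of all libraries and 1 to 4 with 1 replicate left out. Members higher at C2 with mocetinostat numbered 3 without its C2 replicate 3, against 0, and members lower at C3 with scriptaid 7 without its C4 replicate 3, against 2. Members lower at C3 numbered 20 (without replicate 2) to 33 with 1 replicate left out, against 35, and members higher at C3 numbered 2 under total counts without TMM, 2 with no fold threshold and 2 without replicate 1, against 0.

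With the replicate block, which pairs libraries by cell batch, 1 member was lower at C5 with trichostatin A (SAA1, -1.32, adjusted p = 0.0316) in place of 0, A2M_1 with panobinostat passed the threshold, and no other call at C5 changed. Depth limits the low transcripts: CRP, SAA4 and A2M_1 had a handful of counts or none in many C5 libraries.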
